A study of Canis lupus familiaris with 29 samples.

Results

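The genes described here are receptors, ligands and transcriptional targets of the Notch pathway: the receptors NOTCH1, NOTCH2 and NOTCH3, the ligands JAG1, JAG2, DLL1 and DLL3, and the target genes HES1, HES6 and HEY1. They were chosen by name, and 7 of the 10 were found among the 18239 named genes of the 30951 genes in the table. DLL3, HES1 and HES6 were not found by gene name in the table and were not analysed here. All 7 passed the low-count filter in every comparison. NOTCH4 and DLL4, the other receptor and the other delta-like ligand, were taken from a list of further pathway genes and are described beside them.

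Notch receptors are single-pass membrane proteins that are activated by ligands of the Jagged and Delta-like families on a neighboring cell. Binding leads to cleavage by an ADAM protease and then by gamma-secretase, and the released intracellular part joins RBPJ and Mastermind-like proteins in the nucleus to switch on genes of the HES and HEY families, which encode transcriptional repressors. In vessels, NOTCH1, NOTCH4 and DLL4 are known from endothelial cells and NOTCH3 from mural cells, while in neural crest derivatives Notch signaling is known for holding back differentiation.

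RNA sequencing was done on tissue of dogs: 10 normal adrenal medullas (NAMs) of healthy dogs and 19 pheochromocytomas and paragangliomas (PPGLs), tumors of the chromaffin cells inside or outside the adrenal medulla. Of the PPGLs, 7 were in PPGL group 1 and 12 in PPGL group 2, a split that the authors had drawn from a principal component analysis of these samples, so p-values between the groups describe that split. The labels list each sample separately, and give no treatment, genotype or library batch for any group. The NAMs came from healthy dogs and the PPGLs from patients of several clinics, so the origin of the samples cannot be told apart from the tissue. The total count over genes ran from 19258054 to 35918182 for a NAM (median 25494016.5) and from 18208718 to 31919833 for a PPGL (median 22044100). Levels are given as CPM, which is the count scaled to the library size, after TMM normalization. Each log2 fold change (FC), its standard error (SE) and the adjusted p come from the quasi-likelihood (QL) test of edgeR with Benjamini-Hochberg adjustment over all genes tested, with a threshold of 0.05 against NAMs and 0.1 between the PPGL groups. The comparisons against NAMs share the same 10 control samples, and PPGL group 1 and PPGL group 2 are both part of the PPGLs.

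The tissue labels were checked against marker genes. Of 12 chromaffin markers, none was at a count of 0 in any NAM, and NAMs had a summed level of 43567 ± 23727 CPM (SD, n = 10) and PPGLs one of 52910 ± 34477 CPM (SD, n = 19), with CHGB as the most abundant gene. In PPGL group 1 replicate 5, 1 of the 12 was at a count of 0. The sum was 13084 CPM in that tumor and 8680 CPM in replicate 7 of the same group. In PPGLs, 3 of the 12 were higher and 1 was lower than in NAMs, where 22.3% and 15.2% of all genes were. The NAMs also held RNA of the adrenal cortex: the 11 cortical markers summed to 38139 ± 17192 CPM (SD, n = 10) in NAMs, 464 ± 426 CPM (SD, n = 7) in PPGL group 1 and 7065 ± 9375 CPM (SD, n = 12) in PPGL group 2, and 10 of the 11 were lower in PPGLs. CYP17A1 was the most abundant of them in NAMs, and 5 of the 11 were at a count of 0 in at least 1 tumor of PPGL group 1. In bulk tissue, fewer cells of a type and less RNA per cell cannot be told apart, which holds for all levels below.

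In PPGLs, NOTCH3, JAG2 and HEY1 were higher and NOTCH2 was lower than in NAMs. These 4 of 7 genes passed the threshold where 5541 of the 14766 genes tested (37.5%) did. In each direction, 3 of the 7 were higher and 1 was lower, against 22.3% and 15.2% of all genes. The median log2 FC of the 7 genes was 0.51, and that of all genes tested was 0.13. In PPGL group 1, HEY1 was higher and NOTCH2 lower, which made 2 of 7 where 35.1% of the 15201 genes tested passed, 21.0% of them higher and 14.1% lower. In PPGL group 2, NOTCH3 and HEY1 were higher and no gene was lower, which also made 2 of 7 where 32.9% of all genes passed, 18.4% higher and 14.5% lower. The median log2 FC of the 7 genes was 0.35 in PPGL group 1 and 0.58 in PPGL group 2, beside 0.13 and 0.09 over all genes. These calls were lost in a fit that held the mean log2 CPM of the cortical markers as a covariate, in which 0 of the 7 genes passed in each comparison against NAMs, and 2157, 12 and 1060 genes passed among all those tested. That score was 9.70 ± 0.71 (SD, n = 10) in NAMs, 1.09 ± 1.44 (SD, n = 7) in PPGL group 1 and 6.43 ± 1.86 (SD, n = 12) in PPGL group 2, so the score itself differed between the groups. Its lowest value in a NAM was 8.62 and its highest in PPGL group 1 was 3.49, with no overlap. So the fit cannot tell the score apart from the group there, and its log2 FCs in PPGL group 1, here and below, are extrapolated. In this fit the log2 FC in PPGLs was 1.53 for NOTCH3, -0.75 for NOTCH2, 0.49 for JAG2 and 0.43 for HEY1. NOTCH2 was at -4.64 and HEY1 at -0.47 in PPGL group 1, and NOTCH3 was at 0.32 and HEY1 at 0.21 in PPGL group 2.

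**Figure D1:**
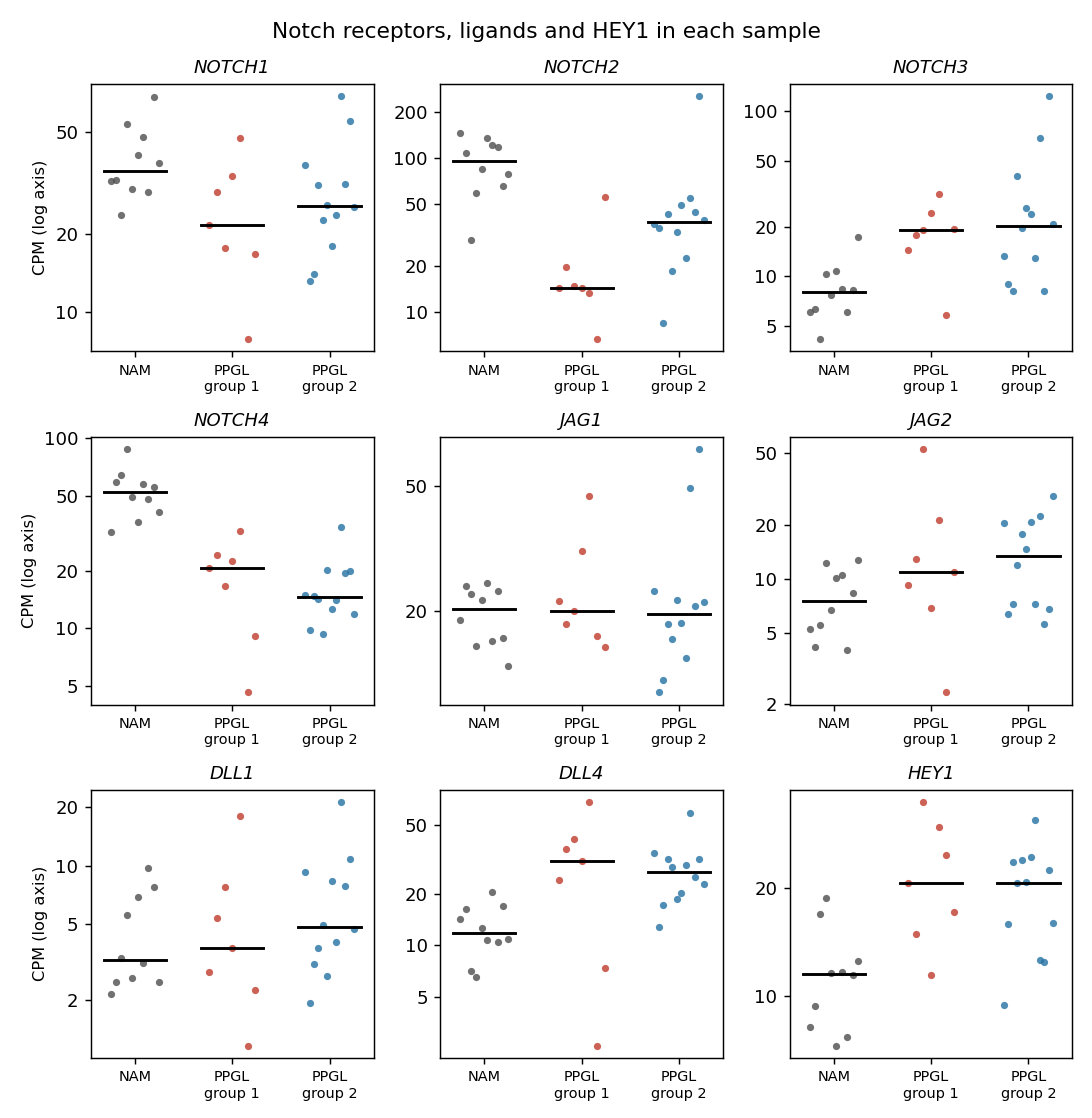
CPM of each sample on a log axis for the receptors, the ligands and HEY1, with NAMs in grey, PPGL group 1 in red and PPGL group 2 in blue. Points are samples and lines are medians, and NOTCH2 has 1 tumor of PPGL group 2 at 254 CPM.

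NOTCH1 (ENSCAFG00000019633) lies on chromosome 9 from 48974757 to 49017277 of CanFam3.1. In NAMs its level ran from 23.7 to 68.0 CPM with a median of 35.2. It ran from 7.80 to 47.4 CPM in PPGL group 1 (median 21.8) and from 13.1 to 68.8 CPM in PPGL group 2 (median 25.7). The 3 ranges overlapped, with 8 of 19 PPGLs below every NAM and 1 above. The log2 FC was -0.47 (SE 0.25, adjusted p = 0.140) between PPGLs and NAMs, which did not pass. Without PPGL group 2 replicate 9, the tumor with the highest level, the adjusted p was 0.0436 and the log2 FC -0.59. The log2 FC in PPGL group 1 was -0.67 (SE 0.32, adjusted p = 0.110), and without replicate 5 it was -0.90 with an adjusted p of 0.0351.

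NOTCH2 (ENSCAFG00000010476) lies on chromosome 17 from 56860429 to 57020857, and shares 98 bp of exon with an unnamed gene on the opposite strand, which had far fewer counts. NAMs held 29.4 to 146 CPM (median 96.2). Its level in PPGL group 1 was 6.64 to 56.2 CPM (median 14.2), and in PPGL group 2 it was 8.49 to 254 CPM (median 38.3). All but 1 of the tumors of PPGL group 1 were below every NAM, and all 7 were below the NAM median. In PPGL group 2, 11 of 12 tumors were below the NAM median and replicate 11, at 254 CPM, was above every NAM. The receptor fell by 1.20 on the log2 scale in PPGLs (SE 0.41, adjusted p = 0.0220), and by 2.25 in PPGL group 1 (SE 0.52, adjusted p = 0.00132). In PPGL group 2 the log2 FC of -0.83 did not pass (SE 0.41, adjusted p = 0.123). Without replicate 11 the log2 FC of NOTCH2 there was -1.43 with an adjusted p of 0.00127, and it also passed by the Mann-Whitney U-test (adjusted p = 0.0160) and with the mean log2 CPM of endothelial and mural markers as a covariate, called the vascular covariate below (log2 FC -1.11, adjusted p = 0.0165).

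NOTCH3 (ENSCAFG00000016107) lies on chromosome 20 from 46937485 to 46978219 and shares 139 bp of exon with EPHX3 on the same strand, so reads in that stretch may be assigned to either gene or to neither. It was the lowest of the receptors in NAMs per length, at 4.17 to 17.3 CPM (median 8.03). PPGL group 1 held 5.88 to 31.5 CPM (median 19.2) and PPGL group 2 held 8.11 to 124 CPM (median 20.3). Of the 19 PPGLs, 12 were above every NAM and none was below, and all 12 tumors of PPGL group 2 were above the NAM median. The log2 FC was 1.64 in PPGLs (SE 0.41, adjusted p = 0.00222) and 1.86 in PPGL group 2 (SE 0.42, adjusted p = 0.00136). It was 1.14 in PPGL group 1 and missed the threshold (SE 0.46, adjusted p = 0.0520), although 5 of 7 tumors were above every NAM. There it passed without NAM replicate 10 or without PPGL group 1 replicate 6, with a lowest adjusted p of 0.0296 among the fits with 1 sample left out, by DESeq2's Wald test (adjusted p = 0.0383) and by the Mann-Whitney U-test (adjusted p = 0.0484). NOTCH3 was reversed in PPGL group 1 by the cortical covariate (log2 FC -2.47, adjusted p = 0.390), a score that did not overlap between that group and NAMs. Its level in the 2 highest tumors, PPGL group 2 replicates 9 and 11, was 68.6 and 124 CPM.

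Markers of mural cells and fibroblasts are given here beside NOTCH3. Of 10 mural markers, 3 were higher in PPGLs than in NAMs and none was lower, where 22.3% and 15.2% of all genes were, and NAMs had a summed level of 994 ± 429 CPM (SD, n = 10) and PPGLs one of 1977 ± 1098 CPM (SD, n = 19), with RGS5 as the most abundant gene (means of 632 and 1391 CPM). The mean log2 CPM of the same markers was 5.04 in NAMs, 4.83 in PPGL group 1 and 5.50 in PPGL group 2. In PPGL group 1, 1 mural marker, ABCC9, was higher (log2 FC 2.21) and 1, DES, was lower (log2 FC -3.18). Of the fibroblast markers there, COL1A1 was higher (log2 FC 2.14) and PDGFRA was lower (log2 FC -2.86). Of all genes, 21.0% were higher and 14.1% lower in that comparison. In PPGL group 2, 3 of the 10 mural and 4 of the 6 fibroblast markers were higher and none was lower. There 18.4% of all genes were higher and 14.5% lower. PDGFRB did not differ between PPGLs and NAMs by the test (log2 FC 0.02, adjusted p = 0.967). The mural sum ran from 433 to 1700 CPM in NAMs, from 346 to 4046 CPM in PPGL group 1 and from 883 to 5270 CPM in PPGL group 2. Of 6 fibroblast markers, 4 were higher in PPGLs, and NAMs summed to 430 ± 117 CPM (SD, n = 10) and PPGLs to 2612 ± 5674 CPM (SD, n = 19), with COL3A1 as the most abundant gene in PPGLs. The medians of this sum lay closer together, at 412 CPM in NAMs and 669 CPM in PPGLs. In PPGL group 2 replicate 11 the fibroblast sum was 25197 CPM, the mural sum 5270 CPM and the sum of 6 leukocyte markers 984 CPM, each the highest of the 29 samples. No mural or fibroblast marker was at a count of 0 in any sample. With the vascular covariate the log2 FC of NOTCH3 was 1.69 in PPGLs, 1.81 in PPGL group 1 (adjusted p = 6.26e-05) and 1.63 in PPGL group 2, and it passed in each. That covariate pools endothelial and mural markers. From NAMs to PPGLs the mean log2 CPM of the endothelial markers went from 5.28 to 4.59, and that of the mural markers from 5.04 to 5.25. This fit does not tell which cells hold NOTCH3. The part of the mural markers alone and that of fibroblasts were not tested.

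NOTCH4, the receptor known chiefly from endothelial cells, was at 32.1 to 87.9 CPM in NAMs (median 52.2). In PPGL group 1 it was at 4.60 to 32.7 CPM (median 20.8), and in PPGL group 2 at 9.30 to 34.2 CPM (median 14.5). Of the 19 PPGLs, 17 were below every NAM and all were below the NAM median. It fell by 1.62 on the log2 scale in PPGLs (SE 0.22, adjusted p = 3.33e-06), by 1.50 in PPGL group 1 (SE 0.30, adjusted p = 0.000346) and by 1.70 in PPGL group 2 (SE 0.25, adjusted p = 1.98e-05). Of 10 endothelial markers, 5 were lower in PPGLs (where 15.2% of all genes were) and none was higher, while PECAM1, CLDN5, ESAM and CDH5 had log2 FCs from -0.17 to -0.03 and did not pass. ERG did not pass either, at a log2 FC of -0.72 (adjusted p = 0.0684). In PPGL group 1, 2 of the 10 were lower (14.1% of all genes), and in PPGL group 2, 4 were (14.5% of all genes). NAMs summed to 820 ± 260 CPM (SD, n = 10) while PPGLs summed to 537 ± 240 CPM (SD, n = 19). VWF was the most abundant of them in NAMs and PECAM1 in PPGLs, and none was at a count of 0 in any sample. In PPGLs, NOTCH4 passed under all 9 alternative settings, the vascular covariate among them, with log2 FCs from -1.88 to -1.56. It passed under all 8 in PPGL group 2 (log2 FC -1.97 to -1.69) and under 7 of 8, again with the vascular covariate, in PPGL group 1. These fits do not tell which cells hold NOTCH4, and the part of the endothelial markers alone was not tested. With the cortical covariate the call of NOTCH4 was lost in PPGL group 1 (log2 FC -2.27, adjusted p = 0.225).

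Per length, as CPM divided by the exon length in kilobases (RPKM), the 4 receptors summed to 24.9 ± 3.53 RPKM (SD, n = 10) for NAMs and to 14.8 ± 10.9 RPKM (SD, n = 19) in PPGLs. In NAMs, NOTCH4 made up 38.9 ± 12.1% (SD, n = 10) of this sum, NOTCH2 35.3 ± 13.0%, NOTCH1 20.4 ± 5.33% and NOTCH3 5.38 ± 2.50%. NOTCH2 and NOTCH4 were each the highest receptor in 5 of 10 NAMs, and their shares differed by less than their spread. In PPGLs the shares were 24.2 ± 8.76% (SD, n = 19) for NOTCH4, 23.3 ± 11.4% for NOTCH2, 26.9 ± 6.10% for NOTCH1 and 25.6 ± 7.18% for NOTCH3, which lay within each other's spread. The NOTCH3 share ran from 3.57 to 12.0% in NAMs, from 21.5 to 30.8% in PPGL group 1 and from 9.65 to 37.1% in PPGL group 2. No tumor of PPGL group 1 overlapped with NAMs in this share, while PPGL group 2 replicate 10, at 9.65%, lay within the range of the NAMs. The shares are descriptions, with no test.

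**Figure D2:**
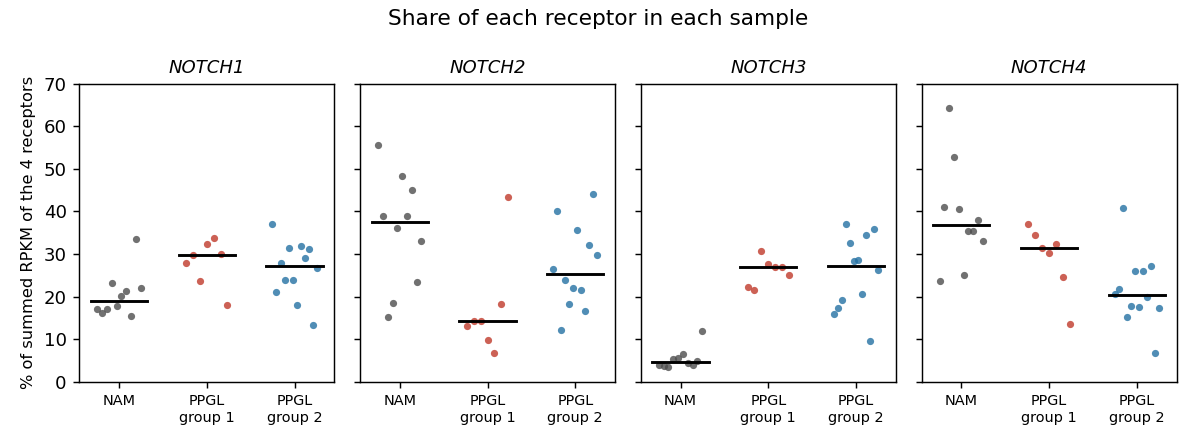
Share of NOTCH1, NOTCH2, NOTCH3 and NOTCH4 in the summed RPKM of the 4 receptors, in percent, for each sample of the 3 groups. Points are samples and lines are medians, and the NOTCH3 share lies between 3.57 and 12.0% in NAMs and between 9.65 and 37.1% in PPGLs.

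JAG1 (ENSCAFG00000005627), a Jagged ligand, lies on chromosome 24 from 11657416 to 11692199. Its level was 13.3 to 24.6 CPM in NAMs (median 20.2), 15.4 to 46.5 CPM in PPGL group 1 (median 19.9) and 11.0 to 65.8 CPM in PPGL group 2 (median 19.6). The medians lay close together, and the tumors above the NAMs were few, 4 of 19. The log2 FC in PPGLs was 0.31 (SE 0.24, adjusted p = 0.319), which did not pass, and neither did those of 0.30 in PPGL group 1 and 0.31 in PPGL group 2. With the vascular covariate JAG1 passed in PPGL group 1 (log2 FC 0.57, adjusted p = 0.0492), and with the cortical covariate it was reversed there (log2 FC -0.83) and in PPGL group 2 (log2 FC -0.14). With 1 sample left out in turn, the lowest log2 FC of JAG1 was 0.17 in PPGLs, 0.060 in PPGL group 1 and 0.068 in PPGL group 2.

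JAG2 (ENSCAFG00000018401), the other Jagged ligand, lies on chromosome 8 from 72535107 to 72550322. NAMs held 4.03 to 12.7 CPM (median 7.53), PPGL group 1 held 2.33 to 52.6 CPM (median 10.9) and PPGL group 2 held 5.59 to 28.95 CPM (median 13.3). In all, 9 of 19 PPGLs were above every NAM and 1 was below. The log2 FC was 0.92 in PPGLs (SE 0.36, adjusted p = 0.0420). This call was lost when any of 13 of the 29 samples was left out in turn, with adjusted p-values from 0.0199 to 0.0793 and log2 FCs from 0.71 to 1.02 over the 29 fits. The samples were NAM replicates 1, 2, 3, 5, 8 and 9, PPGL group 1 replicates 3 and 5, and PPGL group 2 replicates 1, 5, 7, 9 and 12. It was also lost by the Mann-Whitney U-test (adjusted p = 0.0849) and without the low-count filter (adjusted p = 0.0560). Neither PPGL group passed on its own, with a log2 FC of 1.06 in PPGL group 1 (SE 0.43, adjusted p = 0.0568) and 0.83 in PPGL group 2 (SE 0.39, adjusted p = 0.0980). The adjusted p in PPGL group 1 ran from 0.0186 to 0.445 with 1 sample left out, and it was below 0.05 without NAM replicates 4 or 10, or without PPGL group 1 replicates 1, 4 or 6. JAG2 also passed there by DESeq2's Wald test (adjusted p = 0.0423) and with the vascular covariate (log2 FC 1.28, adjusted p = 0.0329), and was reversed with the cortical covariate (log2 FC -0.996). The log2 FC there was 0.41 without replicate 3, which held 52.6 CPM.

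DLL1 (ENSCAFG00000004094), a Delta-like ligand, lies on chromosome 12 from 72265682 to 72272348. It was the lowest of the 7 genes in CPM, at 2.15 to 9.69 CPM in NAMs (median 3.23), 1.16 to 17.99 CPM in PPGL group 1 (median 3.73) and 1.95 to 21.3 CPM in PPGL group 2 (median 4.80). Only 3 of 19 PPGLs were above every NAM. The log2 FC of 0.51 in PPGLs did not pass (SE 0.39, adjusted p = 0.322), and it ran from 0.31 to 0.69 with 1 sample left out in turn. DLL1 had a log2 FC in PPGL group 1 of 0.35, -0.26 without replicate 5, the tumor with the highest level of that group, and -0.85 with the cortical covariate.

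DLL4, the Delta-like ligand known from the endothelium of growing vessels, was at 6.53 to 20.5 CPM in NAMs (median 11.8). It was at 2.62 to 68.0 CPM in PPGL group 1 (median 30.8) and at 12.8 to 58.8 CPM in PPGL group 2 (median 26.9). Of the PPGLs, 13 of 19 were above every NAM and 1 was below. DLL4 was higher in PPGLs (log2 FC 1.18, SE 0.32, adjusted p = 0.00457), in PPGL group 1 (log2 FC 1.25, SE 0.38, adjusted p = 0.0119) and in PPGL group 2 (log2 FC 1.13, SE 0.34, adjusted p = 0.0126). The call in PPGL group 1 was lost without replicate 5 (log2 FC 0.91, adjusted p = 0.0613) and by the Mann-Whitney U-test (adjusted p = 0.223). With the cortical covariate DLL4 did not pass in PPGLs (log2 FC 1.01, adjusted p = 0.107), PPGL group 1 (log2 FC 0.67) or PPGL group 2 (log2 FC 0.92). While DLL4 was higher, 5 of the 10 endothelial markers were lower in PPGLs, as given for NOTCH4.

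HEY1 (ENSCAFG00000008391), which encodes a repressor of the bHLH class and is a direct target of Notch, lies on chromosome 29 from 27185191 to 27188121. NAMs held 7.25 to 18.8 CPM (median 11.5), PPGL group 1 held 11.4 to 34.9 CPM (median 20.7) and PPGL group 2 held 9.43 to 31.1 CPM (median 20.7). Of 19 PPGLs, 11 were above every NAM and none was below, so the groups overlapped in the 8 others. The log2 FC was 0.83 in PPGLs (SE 0.20, adjusted p = 0.00202), 0.93 in PPGL group 1 (SE 0.24, adjusted p = 0.00399) and 0.75 in PPGL group 2 (SE 0.22, adjusted p = 0.00870). No single sample ended these calls. They were lost with the cortical covariate, at a log2 FC of 0.43 in PPGLs (adjusted p = 0.262). With it the log2 FC was -0.47 in PPGL group 1 (adjusted p = 0.804) and 0.21 in PPGL group 2 (adjusted p = 0.680). Without that covariate HEY1 passed in all 3 comparisons against NAMs, and its levels in the PPGL groups had the same median to 3 digits.

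**Figure D3:**
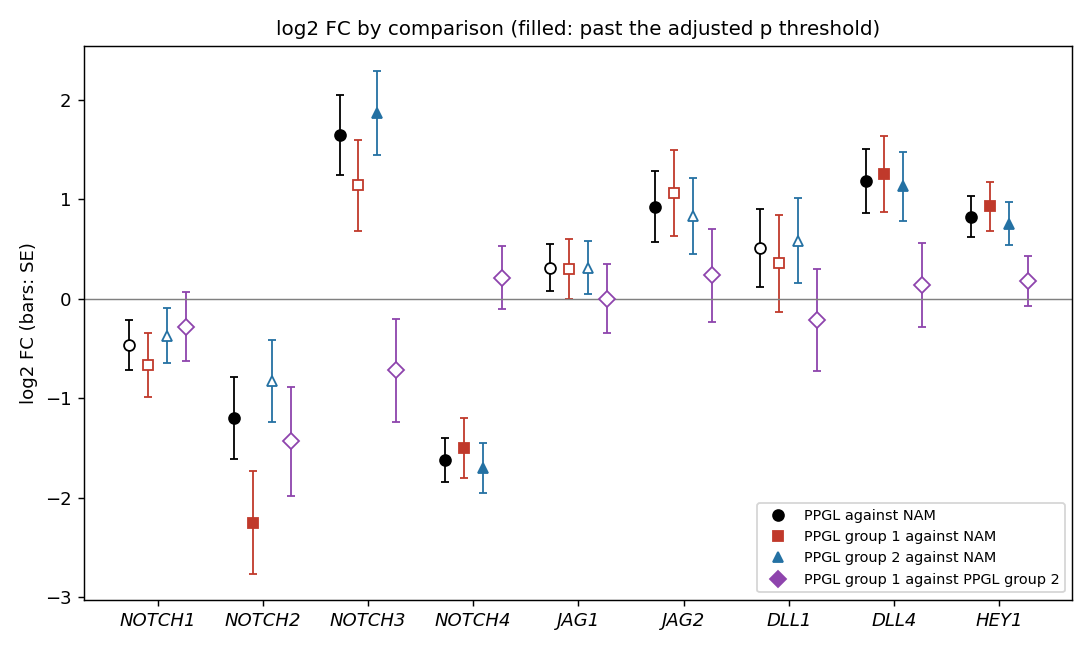
log2 FC of the receptors, ligands and HEY1 in each comparison, with the SE as bars. Filled symbols passed the adjusted p threshold, and NOTCH2 in PPGL group 1 has the lowest value, -2.25, and NOTCH3 in PPGL group 2 the highest, 1.86.

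Between the PPGL groups, 0 of the 7 genes passed by edgeR's QL test, where 1015 of the 14666 genes tested did (6.92%; 3.97% higher and 2.95% lower in PPGL group 1). At an unadjusted p below 0.05 the count was 1, which was NOTCH2. DESeq2's Wald test called 1 of the 7 and 1793 of all genes, and the Mann-Whitney U-test called 0 of the 7 and 298 of all genes. NOTCH2 had a log2 FC of -1.43 (SE 0.55, adjusted p = 0.150), with 6 of 7 tumors of PPGL group 1 below the median of PPGL group 2. Its adjusted p was 0.0573 by DESeq2's Wald test, 0.0587 with all 3 groups in the fit and 0.0836 without PPGL group 1 replicate 7, the tumor of that group with 56.2 CPM. It did not pass by the Mann-Whitney U-test (adjusted p = 0.288), and the log2 FC was -0.82 without PPGL group 2 replicate 11, -0.37 with the vascular covariate (adjusted p = 0.789) and -3.17 with the cortical covariate (adjusted p = 0.125). For the other genes the log2 FC was between -0.72, for NOTCH3, and 0.23, for JAG2. That of NOTCH3 ran from -0.87 to -0.26 with 1 sample left out in turn. So the difference between PPGL group 1, in which NOTCH2 passed against NAMs, and PPGL group 2, in which it did not, was below the threshold in the direct comparison. The same was true of NOTCH3, which passed in PPGL group 2 and not in PPGL group 1, with an adjusted p of 0.467 between them.

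By median RPKM, the order in NAMs was NOTCH4 (9.42), NOTCH2 (8.99), HEY1 (6.76), NOTCH1 (4.57), JAG1 (4.42), DLL4 (3.30), JAG2 (1.62), DLL1 (1.51) and NOTCH3 (1.25). In PPGLs it was HEY1 (12.2), DLL4 (8.05), JAG1 (4.35), NOTCH1 (3.30), NOTCH2 (3.1), NOTCH3 (3.02), NOTCH4 (2.69), JAG2 (2.58) and DLL1 (2.19). The medians of neighbors in either order differed by less than the larger of their SDs, except DLL4 and JAG2 in NAMs, with SDs of 1.24 and 0.71 RPKM. In PPGLs the medians of the 4 receptors lay between 2.69 and 3.30 RPKM, and the order differed between the PPGL groups. By median, NOTCH2 was the lowest of the 9 genes in PPGL group 1 (1.33 RPKM), where NOTCH4 was the highest receptor (3.75 RPKM). In PPGL group 2, NOTCH2 was the highest receptor (3.58 RPKM) and NOTCH4 the lowest (2.62 RPKM).

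PPGL group 1 replicate 6 had the lowest level of that group for NOTCH1, NOTCH2, NOTCH3, NOTCH4, JAG2, DLL1 and DLL4, and its endothelial sum, 213 CPM, was the lowest of the 29 samples. In the same group, replicate 5 was highest for NOTCH1, NOTCH3, NOTCH4, JAG1, DLL1 and DLL4, with an endothelial sum of 1091 CPM. In PPGL group 2, replicate 9 was highest for NOTCH1, NOTCH4, DLL1 and DLL4, and replicate 11 for NOTCH2, NOTCH3 and JAG1. The part of vessel cells in these differences was not tested.

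How the 7 genes varied together over the 29 samples is described after subtraction of the group means, with no test. The Pearson r of log2 CPM between receptors and ligands ran from 0.09, for NOTCH2 and JAG2, to 0.72, for NOTCH1 and DLL1. It was 0.72 between NOTCH1 and NOTCH3 and 0.10 between JAG1 and JAG2. HEY1 stood apart, with r between -0.37 and 0.16 to each of the other 6 genes. The mean of the endothelial markers had r = 0.81 with NOTCH1 and -0.25 with HEY1, and that of the mural markers had r = 0.80 with NOTCH3, 0.73 with JAG1 and -0.01 with HEY1. The chromaffin markers had r from -0.58, with DLL1, to -0.43, with JAG2, to the receptors and ligands, and -0.11 to HEY1. NOTCH3 also had r = 0.78 with the leukocyte markers and -0.48 with the cortical markers, and the r of HEY1 farthest from 0 was -0.51, with the cortical markers. The fibroblast markers had r = 0.72 with NOTCH2, its highest with any marker list, and 0.71 with NOTCH3. All of these values share the same libraries and their depth.

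Among 13029 other named genes, those with the highest r over the 29 samples were SCARF1 (0.87), ADGRF5 (0.87) and FLT1 (0.86) for NOTCH1, which include genes known from endothelial cells. For NOTCH2 they were WIPF1 (0.89), CDH11 (0.88) and RASL11A (0.86). NOTCH3 was most like PDGFRB (0.90), a receptor of mural cells and fibroblasts, FGR (0.88) and TBC1D1 (0.87). JAG1 was most like CHST3 (0.81), INPP4B (0.80) and HIC1 (0.79), and JAG2 was most like PCGF2 (0.74), CDH1 (0.74) and SEMA6B (0.73). For DLL1 the genes were NTF3 (0.83), SEMA3F (0.78) and GPRC5C (0.77), and for HEY1 they were MAP3K12 (0.80), FKBP1B (0.80) and APBB1 (0.77).

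Of a list of 64 further genes of the pathway, 59 were found by name and 56 were tested against NAMs. In PPGLs, 10 were higher and 7 lower, together 30.4% of those tested beside 37.5% of all genes, with a median log2 FC of 0.03 beside 0.13. In PPGL group 1, 10 were higher and 8 lower (32.1% beside 35.1% of all genes), and in PPGL group 2, 8 were higher and 8 lower (28.6% beside 32.9%). Between the PPGL groups, edgeR's QL test called 0 of 55 beside 6.92% of all genes, with 4 at an unadjusted p below 0.05. DESeq2's Wald test and the Mann-Whitney U-test each called 0 there. The fit of all 3 groups called 4 pathway genes and 2567 of all genes, and that with the vascular covariate called 1 and 562. NUMBL, DTX1, SPEN, HEY2 and HEYL were not found by name, and DLK1, HES5 and HES7 did not pass the low-count filter.

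Among the nuclear cofactors, 5 of 20 were higher and 3 lower in PPGLs, together 40% beside 37.5% of all genes. KAT2B, an acetyltransferase that joins the Notch transcription complex, was at 110 to 331 CPM in NAMs (median 238), at 28.2 to 69.3 CPM in PPGL group 1 (median 35.9) and at 29.7 to 117 CPM in PPGL group 2 (median 51.0). All but 1 of the 19 PPGLs were below every NAM, and KAT2B fell by 2.14 on the log2 scale (SE 0.22, adjusted p = 5.31e-08). The corepressor NCOR1 fell by 0.68 (adjusted p = 2.71e-05), with 17 of 19 PPGLs below every NAM. KAT2A, a close relative of KAT2B, was higher (log2 FC 0.58, adjusted p = 0.00707), as were the cofactor SNW1 (log2 FC 0.58, adjusted p = 0.00214) and the histone deacetylase HDAC1 (log2 FC 0.53, adjusted p = 0.00663). With the cortical covariate KAT2A (log2 FC 0.22), SNW1 (log2 FC 0.55) and HDAC1 (log2 FC 0.55) did not pass in PPGLs, so the FC of KAT2A was smaller and those of SNW1 and HDAC1 were close to the values above, and KAT2B and NCOR1 still passed. RBPJ, the DNA-binding factor of the pathway, did not pass, and NAMs had 15.5 ± 3.41 CPM (SD, n = 10) where PPGLs had 15.3 ± 4.33 CPM (SD, n = 19).

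Of the 9 genes that process ligands and receptors, 3 were lower and 1 was higher in PPGLs, together 44.4% beside 37.5% of all genes. APH1A, a gamma-secretase subunit, went from 195 ± 34.4 CPM (SD, n = 10) for NAMs to 101 ± 33.1 CPM (SD, n = 19) for PPGLs, and fell by 0.94 (SE 0.16, adjusted p = 5.73e-05). It shares 100 bp of exon with CA14 on the opposite strand. FURIN, the protease that matures the receptors, fell by 0.77 (SE 0.23, adjusted p = 0.00837), and by 1.14 in PPGL group 1 (adjusted p = 0.00283). ADAM10, which makes the first cut after ligand binding, fell by 0.61 in PPGL group 1 (adjusted p = 0.0177), a call lost with the vascular covariate (log2 FC -0.53, adjusted p = 0.0549), and PSENEN, another gamma-secretase subunit, was higher in PPGL group 2 (log2 FC 0.49, adjusted p = 0.00384). Of the 13 genes for ubiquitination and endocytosis, 1 passed (7.69% beside 37.5% of all genes): NEURL1B, a ubiquitin ligase that acts on ligands, was higher by a log2 FC of 1.27 (PPGLs 5.08 ± 2.18 CPM, SD, n = 19; NAMs 2.11 ± 0.84 CPM, SD, n = 10, SE 0.27, adjusted p = 0.000616), with 15 of 19 PPGLs above every NAM. With the cortical covariate the calls of FURIN (log2 FC -0.47) and NEURL1B (log2 FC 0.98) in PPGLs were lost. So were those of FURIN (log2 FC -1.45), APH1A (log2 FC -0.78) and ADAM10 (log2 FC -0.57) in PPGL group 1. Of the 5 glycosylation genes 1 was higher (20% beside 22.3% of all genes), and of the 4 non-canonical ligands tested none passed.

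Of the other target genes, 3 were tested and 1 was higher in PPGLs (33.3% beside 37.5% of all genes called). NRARP, a target that feeds back on the Notch complex, was at 0.53 to 1.86 CPM in NAMs (median 1.09), 0.87 to 4.75 CPM in PPGL group 1 (median 3.04) and 0.57 to 4.50 CPM in PPGL group 2 (median 1.76). Of 19 PPGLs, 11 were above every NAM. The log2 FC was 1.20 in PPGLs (SE 0.32, adjusted p = 0.00381), 1.55 in PPGL group 1 (adjusted p = 0.00160) and 0.95 in PPGL group 2 (adjusted p = 0.0261), where it was lost without replicate 9 (adjusted p = 0.0533). HES2, a further HES gene, fell by 2.06 in PPGL group 2 (SE 0.64, adjusted p = 0.0138), from 0.74 ± 0.42 CPM (SD, n = 10) for NAMs to 0.17 ± 0.14 CPM (SD, n = 12). With the cortical covariate NRARP passed in no comparison, at a log2 FC of 0.84 in PPGLs, 1.98 in PPGL group 1 and 1.11 in PPGL group 2, and HES2 did not pass (log2 FC -1.54).

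Several pathway genes were called in both PPGL groups, KAT2B, APH1A, NEURL1B, NRARP, NOTCH4 and DLL4 among them. Both tests share the same NAMs and the same fit, and how many of all genes were called in both was not counted. The list passed at 32.1% beside 35.1% of all genes in PPGL group 1, and at 28.6% beside 32.9% in PPGL group 2. KAT2B fell in PPGL group 1 by 2.46 (adjusted p = 9.45e-07) and APH1A by 0.97 (adjusted p = 0.000980), while NEURL1B (log2 FC 1.39, adjusted p = 0.00138), KAT2A (log2 FC 0.82, adjusted p = 0.00132) and CIR1, a corepressor that binds RBPJ (log2 FC 0.61, adjusted p = 0.000295), were higher. DLK2, a non-canonical ligand, had a log2 FC of 1.97 there (adjusted p = 0.0340), with medians of 0.28 CPM in PPGL group 1 and 0.29 CPM in NAMs. Without replicate 1, at 5.90 CPM, the log2 FC was 1.02. This call was lost in 9 of 17 fits with 1 sample left out, with adjusted p-values from 0.0182 to 0.267, and by the Mann-Whitney U-test (adjusted p = 0.931). In PPGL group 2, KAT2B fell by 1.99 (adjusted p = 1.43e-06), APH1A by 0.93 (adjusted p = 0.000366) and the corepressor TLE3 by 1.19 (adjusted p = 0.0447). The call of TLE3 was lost in 13 of 22 fits with 1 sample left out, with adjusted p-values from 0.00531 to 0.0913. NEURL1B (log2 FC 1.19, adjusted p = 0.00259), SNW1 (log2 FC 0.59, adjusted p = 0.00515) and HDAC1 (log2 FC 0.52, adjusted p = 0.0168) were higher in PPGL group 2. With the cortical covariate none of the genes named for PPGL group 1 passed, with log2 FCs of -0.26 for KAT2B, 0.63 for NEURL1B, 0.44 for KAT2A, 0.42 for CIR1 and -3.34 for DLK2. NEURL1B (log2 FC 0.89), SNW1 (log2 FC 0.48), HDAC1 (log2 FC 0.59) and TLE3 (log2 FC -2.14) did not pass in PPGL group 2 in that fit.

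A last list included inhibitors of bHLH factors and the E proteins with which bHLH factors pair. Of these, ID2 was not found by name, and ID4 did not pass the low-count filter. The E protein TCF4 was at 16.2 to 38.5 CPM in NAMs (median 23.9) and at 25.8 to 101 CPM in PPGLs (median 56.6), and was higher by a log2 FC of 1.18 (SE 0.20, adjusted p = 4.87e-05), with 15 of 19 PPGLs above every NAM. ID3, an inhibitor of bHLH factors, had a log2 FC of 1.14 in PPGLs (SE 0.42, adjusted p = 0.0328), which was lost in 8 of 29 fits with 1 sample left out (adjusted p from 0.0221 to 0.0592) and by the Mann-Whitney U-test (adjusted p = 0.211). ID3 was also called in PPGL group 2 (log2 FC 1.22, adjusted p = 0.0396), lost in 10 of 22 such fits and by the Mann-Whitney U-test (adjusted p = 0.310). ID3 did not pass with the cortical covariate in PPGLs (log2 FC 1.15) or PPGL group 2 (log2 FC 0.95), and neither did TCF3 (log2 FC 0.19) and TCF4 (log2 FC 0.55) in PPGL group 1. TCF3 passed in PPGL group 1 with a log2 FC of 0.55 (adjusted p = 0.0240), and without replicate 7 its log2 FC was 0.20 with an adjusted p of 0.214, and it was lost by the Mann-Whitney U-test (adjusted p = 0.136) and with the vascular covariate (log2 FC 0.42, adjusted p = 0.120). The call of ID3 in PPGL group 2 was lost with the vascular covariate too (log2 FC 0.93, adjusted p = 0.0538), while ID3 passed with it in PPGL group 1 (log2 FC 1.52, adjusted p = 0.0105), where it had not passed without (log2 FC 0.99, adjusted p = 0.130). ID1 and TCF12 did not pass in any comparison by edgeR's QL test. Between the PPGL groups ID1 passed with the vascular covariate (log2 FC 1.63, adjusted p = 0.0913) and without PPGL group 1 replicate 1 (log2 FC 1.34, adjusted p = 0.0923).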

How the data were processed

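RNA of 10 NAMs and 19 PPGLs was sequenced from stranded mRNA libraries. The authors deposited 1 table of raw counts per gene over exons, not normalized, from alignments made with STAR on CanFam3.1. The submitters' processing notes also name FastQC, Picard and HTSeq, with no versions, and the strand setting is not given in the sources used here, so overlapping genes are uncertain. Exon lengths were those deposited in the table.

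Genes were filtered by edgeR's filterByExpr (minimum count 10, minimum total 15), normalized by TMM and tested, two-sided, with the QL F test (prior count 0.125). All 29 samples entered the fit of PPGLs against NAMs, each PPGL group was tested against NAMs in a fit of the 3 groups, and the PPGL groups were compared within the 19 PPGLs. RPKM is TMM-normalized CPM per kilobase of exon. Likeness and marker scores used log2 CPM with a prior count of 2. The genes named are the 7 genes found, NOTCH4, DLL4, for each comparison the called pathway genes of largest log2 FC, at most 6 in each direction, the inhibitors and E proteins of the last list, and the 3 genes most like each of the 7, and some results are not reported here. RBPJ and the list genes given only by a level were named outside this rule, after values had been seen.

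The alternatives were DESeq2's size factors, DESeq2's Wald test, the Mann-Whitney U-test on CPM, no filter, at least 1 CPM in 7 samples, the sample number as a block, cortical and vascular scores as covariates, the 3-group fit, and each sample left out. The counts over pathway genes and all genes, and the values of pathway and partner genes, were put under these alternatives after seeing the data. The members and lists were chosen with earlier results of these data known. The QL, Wald and Mann-Whitney U-tests of each comparison were run on simulated counts with known changes, and their recovery is not reported here. The other alternatives were not simulated. The range of total counts per sample limits the precision of low genes: the lowest count behind a value of the 7 genes was 20. Tests ran in R 4.3.3 with edgeR 4.0.16 (on limma 3.58.1) or DESeq2 1.42.0, and figures were drawn by matplotlib 3.10.9 under Python 3.11.15.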

Additional observations from a re-analysis of the deposited data

How the results depend on the processing

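With 1 sample left out in turn, HEY1 kept its call in all 3 comparisons against NAMs, and the number of called genes ran from 3 to 4 of the 7 genes, 17 to 19 of the pathway list and 4954 to 5790 of all genes in PPGLs, 2 to 4, 16 to 19 and 4799 to 5473 in PPGL group 1, 2 to 3, 13 to 18 and 4391 to 5200 in PPGL group 2, and 0 to 1, 0 to 1 and 525 to 1218 between the PPGL groups. Over these fits the log2 FC changed sign for ID1 in PPGLs (-0.064 to 0.58), DLL1 (-0.26 to 0.54) and TCF12 (-0.28 to 0.51) in PPGL group 1, ID1 in PPGL group 2 (-0.35 to 0.052) and, between the PPGL groups, JAG1 (-0.23 to 0.25), JAG2 (-0.40 to 0.43), DLL1 (-0.82 to 0.10), DLL4 (-0.20 to 0.34), ID3 (-0.67 to 0.043), TCF4 (-0.26 to 0.086) and TCF12 (-0.45 to 0.32). The cortical covariate left 0 of the 7 genes in each comparison against NAMs, 7, 0 and 7 pathway genes and 2157, 12 and 1060 of all genes in PPGLs, PPGL group 1 and PPGL group 2, and 0 of all genes between the PPGL groups. It reversed ID1 (log2 FC -0.51), TCF3 (-0.033) and TCF12 (-0.056) in PPGLs, NOTCH3 (-2.47), JAG1 (-0.83), JAG2 (-0.996), DLL1 (-0.85), HEY1 (-0.47), DLK2 (-3.34) and TCF12 (-1.10) in PPGL group 1, JAG1 (-0.14) and TCF12 (-0.32) in PPGL group 2, and JAG1 (-0.83), JAG2 (-1.13), HEY1 (-0.53), NOTCH4 (-0.19), DLL4 (-0.51) and TCF12 (-0.87) between the PPGL groups. In PPGL group 1 the cortical score did not overlap with that of NAMs, so this fit cannot tell the score apart from the group there. The vascular covariate called 5 of the 7 genes in PPGL group 1 and, between the PPGL groups, 1 pathway gene and 562 of all genes, with NOTCH1 (0.063), NOTCH3 (0.17), DLL1 (0.089) and ID3 (0.68) reversed. DESeq2's Wald test called 4 of the 7 genes in PPGL group 1 and, between the PPGL groups, 1 of the 7 genes and 1793 of all genes. The Mann-Whitney U-test called 26 pathway genes in PPGL group 2 and 298 of all genes between the PPGL groups, and the 3-group fit called 1 of the 7 genes, 4 pathway genes and 2567 of all genes there. Over all genes, no alternative setting called more than 5851 in PPGL group 1 or 5721 in PPGL group 2. The fit reported called 5331 and 5005 of all genes in these comparisons. The share of all genes at each setting is not given here. JAG1 between the PPGL groups was near 0, at 0.00079, and at -0.00449 with DESeq2's size factors, -0.00438 by the Wald test, -0.00584 without the filter and -0.00903 in the 3-group fit. The sample numbers did not pair the samples: the correlation of the deviations of samples with the same number was -0.0883 to 0.0591 between NAMs and PPGL group 1, -0.247 to 0.266 between NAMs and PPGL group 2 and -0.107 to 0.0401 between the PPGL groups, and over 0.1 in 0 of 7, 3 of 10 and 0 of 7 pairs. With the replicate number as a block, 47 of all genes were called between the PPGL groups, JAG1 in PPGL group 2 was reversed (-0.047), as were NOTCH1 (0.025), NOTCH3 (0.010), JAG2 (-0.24), DLL4 (-0.046), ID3 (0.37) and TCF12 (-0.083) between the PPGL groups, and the calls of JAG2 and ID3 in PPGLs, DLL4 (adjusted p = 0.0806), DLK2 and TCF3 in PPGL group 1, and DLL4 (adjusted p = 0.0514) and ID3 in PPGL group 2 were not made, while NOTCH1 in PPGLs (adjusted p = 0.0493), NOTCH3 in PPGL group 1 (adjusted p = 0.0173) and NOTCH2 in PPGL group 2 (-1.50, adjusted p = 0.00167) were called. The cause of these changes was not tested. DLL1, with a lowest count of 20, is the gene of the 7 whose level depth limits most.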
